A study of Rattus norvegicus with 8 samples.

Results

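The genes described here are those of chromosome segregation, DNA replication and DNA repair whose level differed between glia with many lipid droplets (LD-high) and glia with few (LD-low). They were taken by the start of the gene symbol from the authors' sheets of called genes, with patterns such as Cenp for centromere proteins, Ncap and Smc for condensins and their relatives, or Rad for repair proteins. The patterns took 34 of 1183 distinct names, and 33 remained once Cdc42bpb, which belongs with the signalling partners of Cdc42, was left out. Since the sheets hold only genes that the authors called, all 33 are called genes, and the patterns cannot find a gene of the same families that did not pass.

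Both groups came from cultures of hippocampal glia of rats at postnatal day 0, which one label calls astrocyte cultures. Their medium held 10% fetal bovine serum, and they were taken on days 3 to 5 in vitro. The cells were stained with Nile red, a dye of neutral lipid, and split by fluorescence-activated cell sorting into LD-high (4 samples) and LD-low (4 samples). The labels name no strain, genetic change or drug for either group. RNA was amplified before sequencing, and the labels do not say whether the samples of a group came from separate animals or cultures, so that the authors' p-values measure a spread that may be technical. Every level below is a pooled value of a whole group from the authors' deposited table, with 1 value for LD-high and 1 for LD-low glia, so no level has an SD or an n, values of single samples were not analysed here, and the depth is unknown. The headers name no unit, and levels are given as FPKM, fragments scaled by transcript length and by the number of mapped fragments, because Cuffdiff, which the submitters' processing notes name, reports that unit. A change is the log2 of the LD-high over the LD-low level, and a gene counts as called where the authors' q was below 0.05.

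A dividing cell copies its DNA in S phase from origins that the origin recognition complex marks, while cohesin rings tie the new sister chromatids together. Condensins then fold the chromosomes, kinetochores built on the centromeres attach them to the spindle, and the spindle checkpoint delays separation until every chromosome is attached. Transcripts of this machinery are made mostly in cycling cells. In such cultures astrocytes, microglia and oligodendrocyte precursors can divide, whereas neurons do not.

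Among the called genes, 16 assigned to G2 and mitosis and 10 assigned to S phase were higher in LD-high glia, with median log2 changes of 1.07 and 1.01. The other 7 members, assigned to neither phase, were 4 higher and 3 lower genes. Of the 33 genes, 30 were higher and 3 were lower in the authors' deposited table. The background over the 12981 genes tested was 4.92% called higher and 4.22% called lower. The median log2 change of the 30 higher genes was 1.07 (range 0.87 to 2.32), beside 1.13 over all 639 called higher genes, and 19 of the 30 changed by at least 1 on the log2 scale, a share like that of all called higher genes (408 of 639). Of the 3 lower genes 1 changed by that much, beside 427 of the 548 called lower genes. At q below 0.01 there were 18 of the 30 higher members, beside 297 of the 639 called higher genes, and 0 of the 3 lower members, beside 257 of the 548 called lower genes. Over all tested genes the shares were 3.14% higher and 3.29% lower by at least 1, and 2.29% higher and 1.98% lower at q below 0.01. Since every member is a called gene, the members' counts cannot be read against these shares of tested genes. The q of the 30 higher genes in the authors' deposited table lay between 0.00187 and 0.0437. The smallest q is that of the smallest p the authors list, 5e-05. It was held by 11 of the 33 genes, a share like that of all called genes (348 of 1187). No member was listed at 0 in either group.

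Among the 33 members, 4 carry names that the patterns caught without belonging to the process. Skap2 encodes an adaptor of immune cell signalling. It had 23.6 FPKM in LD-high glia and 4.75 FPKM in LD-low glia, the largest change among the members (log2 change 2.32; q of 0.00187 in the authors' deposited table). Spcs1 encodes a subunit of the signal peptidase of the endoplasmic reticulum (131 FPKM in LD-high glia and 66.4 FPKM in LD-low glia). The other two are the pseudogenes Esco2-ps1 and Esco2-ps2. Without these 4, 26 genes of the process were higher and 3 were lower, and the median log2 change of the 26 was 1.02, with an interquartile range from 0.96 to 1.20. Over all called higher genes the interquartile range ran from 0.92 to 1.68.

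**Figure D1:**
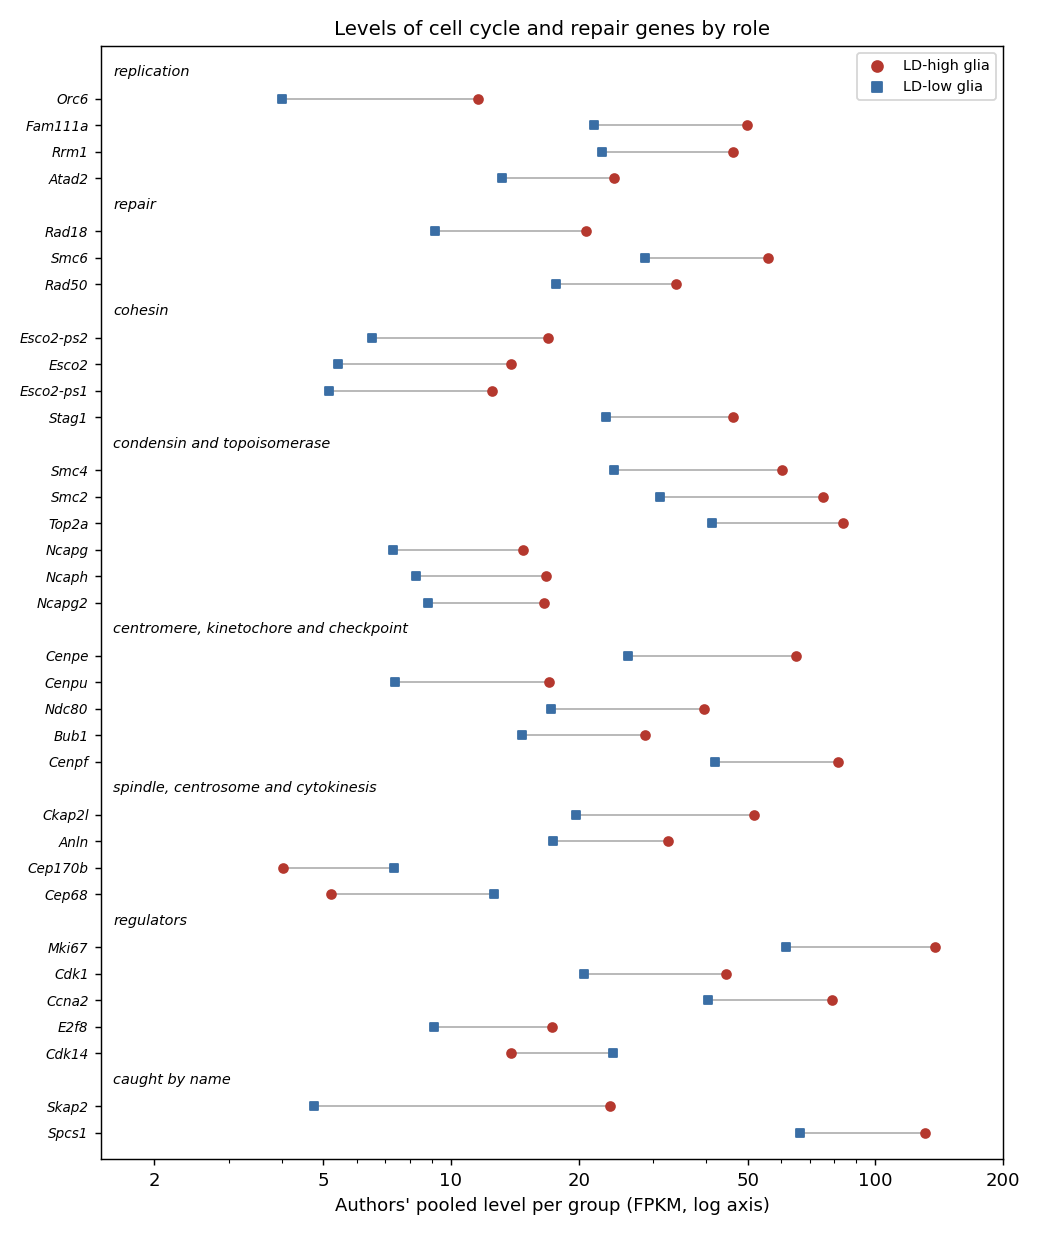
Authors' pooled level of each of the 33 members (FPKM, log axis) in LD-high glia (circles) and LD-low glia (squares), grouped by role, with 1 value per gene and group and no error available. The circle lies right of the square for 30 genes and left of it for Cep68, Cep170b and Cdk14, and Mki67 has the highest level in LD-high glia, at 138 FPKM, against 61.5 FPKM in LD-low glia.

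The promoters of several members are shown because cell cycle genes that move together often share short elements there. The CHR (cell cycle genes homology region) is bound in human cells by the MuvB complex through its subunit LIN54, and the CCAAT box by NF-Y. Each line gives the 150 bases before the transcription start, 5′ to 3′, from the RefSeq promoter table (build GRCr8), for the 5 higher members that hold both elements there and for Cep68, the member that fell most. Capitals mark the CHR (TTTGAA or TTCGAA) and the CCAAT box (CCAAT), each searched on both strands, so that they also appear as TTCAAA and ATTGG.
Cdk1, chr20:19265143-19265292 (+): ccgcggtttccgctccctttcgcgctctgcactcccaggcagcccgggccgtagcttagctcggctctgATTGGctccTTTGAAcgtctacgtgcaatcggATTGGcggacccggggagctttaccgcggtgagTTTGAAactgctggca
Mki67, chr1:199952594-199952743 (-): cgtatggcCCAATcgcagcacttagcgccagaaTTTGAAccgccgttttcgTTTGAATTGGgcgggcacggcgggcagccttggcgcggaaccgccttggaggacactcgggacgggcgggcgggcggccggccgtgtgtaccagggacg
Ncapg, chr14:69645446-69645595 (-): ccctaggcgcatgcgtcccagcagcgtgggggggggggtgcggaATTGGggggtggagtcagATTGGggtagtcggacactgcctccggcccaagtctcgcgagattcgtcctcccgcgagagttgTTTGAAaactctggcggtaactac
Smc4, chr2:155550112-155550261 (+): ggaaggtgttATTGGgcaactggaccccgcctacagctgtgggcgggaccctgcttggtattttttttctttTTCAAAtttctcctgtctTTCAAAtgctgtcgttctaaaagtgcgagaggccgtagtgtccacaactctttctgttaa
Top2a, chr10:84473094-84473243 (-): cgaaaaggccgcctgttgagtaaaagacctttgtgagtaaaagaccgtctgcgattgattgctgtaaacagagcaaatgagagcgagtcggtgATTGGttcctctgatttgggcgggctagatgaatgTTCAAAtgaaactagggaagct
Cep68, chr14:98671869-98672018 (-): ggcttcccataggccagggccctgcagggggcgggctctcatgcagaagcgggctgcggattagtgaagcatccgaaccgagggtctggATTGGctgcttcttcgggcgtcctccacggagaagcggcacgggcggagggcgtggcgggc
In Mki67 a CHR runs into a CCAAT box on the other strand and shares 1 base with it. The stretch of Cep68 holds a CCAAT box and no CHR. The 5 higher members were picked for holding both elements, so Cep68 gives no contrast with them. Higher members such as Bub1 and Rad18 have no CHR there either.

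Replication genes were the first group. Orc6, the smallest subunit of the origin recognition complex, had 11.6 FPKM in LD-high glia and 4.01 FPKM in LD-low glia (log2 change 1.53; q of 0.0343 in the authors' deposited table), the largest change among the members of the process. Fam111a encodes a protease that acts at replication forks, and its level was 49.9 FPKM in LD-high glia and 21.7 FPKM in LD-low glia (1.20). Rrm1, the large subunit of ribonucleotide reductase, which makes the building blocks of DNA, was at 46.2 FPKM in LD-high glia and 22.7 FPKM in LD-low glia (1.02). Atad2 encodes a bromodomain ATPase of chromatin, at 24.2 FPKM in LD-high glia and 13.2 FPKM in LD-low glia (0.87), the smallest change among the higher members. All 4 replication genes were thus higher, with changes that span the whole range of the higher members of the process, 0.87 to 1.53.

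The repair genes among the members were Rad18, Smc6 and Rad50, and all 3 were higher with a q of 0.00556 in the authors' deposited table. Rad18 encodes the ubiquitin ligase that marks PCNA at stalled forks and had 20.8 FPKM in LD-high glia and 9.18 FPKM in LD-low glia (log2 change 1.18). Smc6, a subunit of the SMC5/6 complex, was at 55.9 FPKM in LD-high glia and 28.6 FPKM in LD-low glia (0.97). Rad50, of the complex that holds broken DNA ends, was at 34.0 FPKM in LD-high glia and 17.7 FPKM in LD-low glia (0.94). These products work outside mitosis, and their changes lay within the range of the mitotic genes (0.90 to 1.40).

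Of the cohesin genes, Stag1, a subunit of the ring, had 46.2 FPKM in LD-high glia and 23.2 FPKM in LD-low glia (log2 change 0.99; q of 0.00187 in the authors' deposited table). Esco2, the acetyltransferase that locks cohesin onto sister chromatids in S phase, had 13.8 FPKM in LD-high glia and 5.41 FPKM in LD-low glia (1.36, q = 0.0192 in the authors' deposited table). Its 2 pseudogenes were listed at like levels. Esco2-ps2 had 17.0 FPKM in LD-high glia and 6.53 FPKM in LD-low glia, and Esco2-ps1 had 12.5 FPKM in LD-high glia and 5.15 FPKM in LD-low glia. The level of Esco2-ps2 was 1.23 times that of Esco2 in LD-high glia and 1.21 times in LD-low glia, and for Esco2-ps1 the ratio was 0.904 and 0.953. In the deposited rn6 coordinates Esco2 lies at chromosome 15, 42500929 to 42518855, Esco2-ps2 on the same chromosome at 57186984 to 57188723 and Esco2-ps1 at chromosome 7, 71398160 to 71399941. The pseudogene loci span 1.74 and 1.78 kb and the gene 17.9 kb. Reads of near-identical copies can be split among them, so all 3 levels are uncertain and the 3 rows are not independent.

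Of the condensin genes 5 were called, all 5 higher. Condensin I and II share the ATPases SMC2 and SMC4 and differ in the other subunits. Smc2 had 75.4 FPKM in LD-high glia and 31.2 FPKM in LD-low glia (log2 change 1.28), and Smc4 had 60.2 FPKM in LD-high glia and 24.2 FPKM in LD-low glia (1.31), each with q = 0.00187 in the authors' deposited table. The condensin I subunits Ncapg and Ncaph were at 14.8 and 16.7 FPKM in LD-high glia and at 7.31 and 8.26 FPKM in LD-low glia, and both changed by 1.02 on the log2 scale. Ncapg2, of condensin II, was at 16.6 FPKM in LD-high glia and 8.85 FPKM in LD-low glia (0.91, q = 0.0102 in the authors' deposited table). Both shared ATPases thus had higher levels and larger changes than these 3 complex-specific subunits, and the other 3 of the 6 Ncap symbols were not among the called genes. The ratio of Smc2 to Smc4 was 1.25 in LD-high glia and 1.29 in LD-low glia, and that of Ncapg to Ncaph was 0.887 in LD-high glia and 0.885 in LD-low glia. The ratio of Smc4 to Ncapg was 4.06 in LD-high glia and 3.32 in LD-low glia. No error can be put on these ratios. Top2a, the topoisomerase that untangles sister chromatids, had 84.0 FPKM in LD-high glia and 41.2 FPKM in LD-low glia (1.03, q = 0.00187 in the authors' deposited table).

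At the centromere and kinetochore all 5 members were higher, with a median log2 change of 1.20. Cenpe, a kinesin that carries chromosomes to the spindle equator, had 65.1 FPKM in LD-high glia and 26.2 FPKM in LD-low glia (log2 change 1.31), and Ndc80, the microtubule-binding subunit of the outer kinetochore, had 39.5 FPKM in LD-high glia and 17.2 FPKM in LD-low glia (1.20). Both had q = 0.00187 in the authors' deposited table. Cenpu, of the inner kinetochore, was at 17.0 FPKM in LD-high glia and 7.40 FPKM in LD-low glia (1.20, q = 0.0390 in the authors' deposited table). Cenpf, a large protein of the outer kinetochore, had the highest level of the 5, at 81.7 FPKM in LD-high glia and 42.0 FPKM in LD-low glia (0.96). Bub1, a kinase of the spindle checkpoint, was at 28.6 FPKM in LD-high glia and 14.7 FPKM in LD-low glia (0.96). Levels thus differed several-fold among the 5 genes while their changes lay between 0.96 and 1.31.

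The spindle and centrosome genes went both ways. Ckap2l, a protein of the mitotic spindle, had 51.9 FPKM in LD-high glia and 19.7 FPKM in LD-low glia (log2 change 1.40; q of 0.00187 in the authors' deposited table). Anln encodes anillin, the scaffold of the contractile ring, and was at 32.5 FPKM in LD-high glia and 17.4 FPKM in LD-low glia (0.90). The 2 genes with the prefix Cep, for centrosomal protein, were lower. Cep68, which helps to hold the centrosomes together between divisions, was at 5.22 FPKM in LD-high glia and 12.6 FPKM in LD-low glia (-1.28, q = 0.0298 in the authors' deposited table). Cep170b, a microtubule-binding relative of the centriole protein CEP170, was at 4.02 FPKM in LD-high glia and 7.33 FPKM in LD-low glia (-0.87, q = 0.0486 in the authors' deposited table). Both Cep genes had lower levels in LD-high glia than any higher member, but this is the group in which they are low by the call. In LD-low glia several higher members lay below both, such as Orc6 (4.01 FPKM) and Esco2 (5.41 FPKM).

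Among the regulators, Mki67 encodes Ki-67, the protein that coats mitotic chromosomes and is used as a marker of cycling cells. Its level in LD-high glia was the highest of all 33 genes, at 138 FPKM, against 61.5 FPKM in LD-low glia, where Spcs1 alone was higher (log2 change 1.17; q of 0.00187 in the authors' deposited table). Cdk1, the kinase that starts mitosis, had 44.5 FPKM in LD-high glia and 20.5 FPKM in LD-low glia (1.11, q = 0.0164 in the authors' deposited table). Its partner cyclin A2, Ccna2, was at 79.2 FPKM in LD-high glia and 40.2 FPKM in LD-low glia (0.98, q = 0.0430 in the authors' deposited table). The deposited locus of Ccna2 spans 58.5 kb, and a Cuffdiff locus can take in an overlapping neighbour. E2f8, a repressor of the E2F family that acts late in S phase, was at 17.3 FPKM in LD-high glia and 9.10 FPKM in LD-low glia (0.93). Cdk14, a kinase best known for its part in Wnt signalling, was lower, at 13.9 FPKM in LD-high glia and 24.1 FPKM in LD-low glia (-0.80, q = 0.0301 in the authors' deposited table).

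Grouped by assigned phase, the 16 higher genes of G2 and mitosis had a median log2 change of 1.07 (range 0.90 to 1.40). The 10 higher genes of S phase had 1.01 (range 0.87 to 1.53). The ranges overlap over most of their width, both hold called genes only, and the difference between the phases was not tested. The phases were assigned from textbook roles, with a single phase per gene. Products such as those of Stag1, Rad50, Smc6, Mki67 and Ccna2 are not confined to the phase assigned, so the split is approximate. The remaining 7 members were assigned to neither phase, 4 of them higher and 3 lower. Phases were assigned with earlier results known, so the absence of lower genes from both phases is no result. In bulk samples a larger share of dividing cells and more RNA of these genes per cell cannot be told apart.

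**Figure D2:**
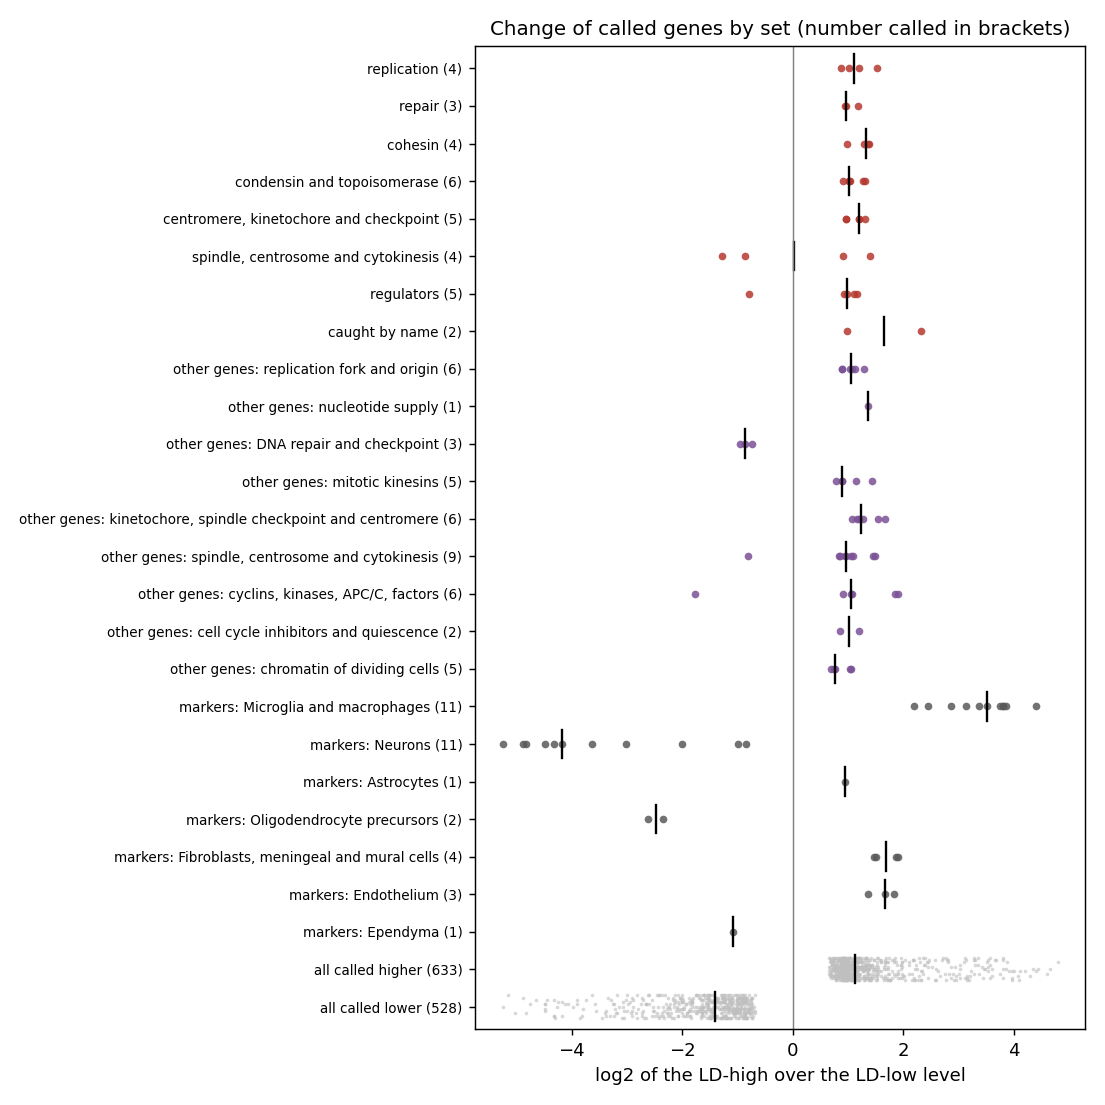
Log2 of the LD-high over the LD-low level for each called gene (points) and the median of each set (black line), for the members by role (red), other cell cycle and repair genes by list (purple), cell type markers (dark grey) and all called genes above 0 in both groups (light grey). The higher members of the process lie between 0.87 and 1.53, whereas the called markers of microglia lie between 2.20 and 4.41 and those of neurons between -5.25 and -0.84.

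The name patterns cover many genes that were not called. RefSeq lists 267 protein-coding rat symbols that the patterns take, and 28 of them (10.5%) were called higher and 3 (1.12%) lower. How many of the 267 the authors tested is not known, so these shares cannot be set against the percentages of tested genes directly. Of the 38 patterns, 22 had a called gene under a RefSeq symbol and 16 had none. Knl is among the 16, although its gene was called under the older symbol Casc5, described below. Of the 1183 called names 1068 have an entry in RefSeq, so other genes called under older symbols can be missed. The 11 symbols starting with Mcm and a number, which include the replicative helicase, the 14 symbols of the DNA polymerase patterns, the 13 Fanc symbols of crosslink repair and the 9 Cdca symbols had no called gene. The same held for the 20 Cdc symbols and the 4 Aurk symbols, which include the mitotic Aurora kinases. Whether such a gene was tested and missed the threshold cannot be told apart from a gene that was never tested, and its level was not analysed here. Ncap and Smc were the families of more than 5 symbols with the largest share called, 3 of 6 and 3 of 7.

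**Figure D3:**
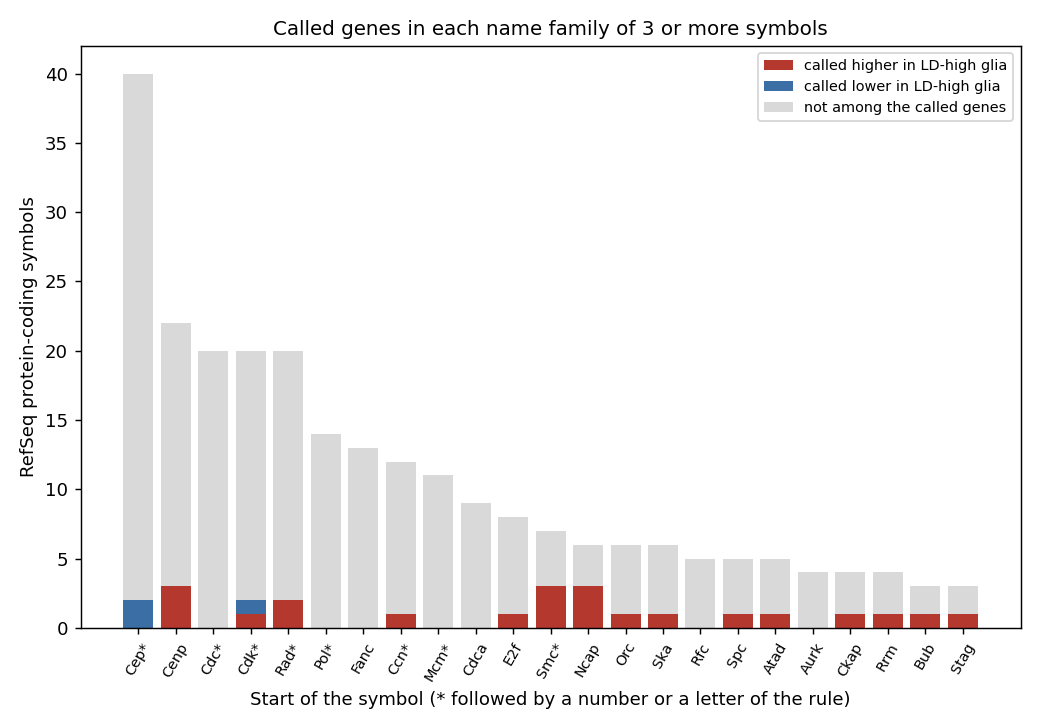
Number of RefSeq protein-coding symbols (vertical axis) for each name pattern with 3 or more symbols, split into those called higher, called lower and not among the called genes. The Cep family has 40 symbols with 2 called lower, and Smc and Ncap have 3 called higher each.

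Other genes of the same pathways were read from 10 lists of 319 symbols in all, older symbols included. Of these 43 were called, 38 higher and 5 lower, and the median log2 change of the 38 was 1.06. Over all tested genes 4.92% were called higher and 4.22% lower, but how many of the symbols of each list below were tested is not known. At the replication fork 6 of 37 symbols were called, all 6 higher. Pcna, the sliding clamp of the polymerases, had 243 FPKM in LD-high glia and 112 FPKM in LD-low glia (log2 change 1.12; q of 0.00187 in the authors' deposited table). Rpa2, a subunit of the single-strand binding protein, and the flap nuclease Fen1 changed by 1.29 and 1.06.

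The kinetochore and centromere list had 6 of 32 symbols called, all 6 higher. Mis18a, which helps to load the centromeric histone, had 15.8 FPKM in LD-high glia and 4.98 FPKM in LD-low glia (log2 change 1.66). Casc5, the older symbol of the kinetochore scaffold Knl1, was at 16.2 FPKM in LD-high glia and 6.74 FPKM in LD-low glia (1.26), and the pattern for Knl does not take it under this symbol. Of 16 symbols for mitotic kinesins 5 were called, each higher, by 0.79 to 1.44. The largest changes were those of Kif20b, which acts in cytokinesis (18.4 FPKM in LD-high glia and 6.81 FPKM in LD-low glia), and Kif18a, which dampens chromosome movement (19.6 FPKM in LD-high glia and 8.88 FPKM in LD-low glia), followed by Kif15, a motor of spindle assembly (17.7 FPKM in LD-high glia and 9.54 FPKM in LD-low glia). Spindle, centrosome and cytokinesis genes had 9 of 50 symbols called, 8 higher and 1 lower. Depdc1, Mastl, the kinase that holds back a phosphatase in mitosis, and the importin Kpna2 were the 3 with the largest changes (1.48, 1.45 and 1.10). Numa1, which anchors the spindle poles, was lower, at 8.22 FPKM in LD-high glia and 14.4 FPKM in LD-low glia (-0.81). No symbol of 9 for the partners of cohesin was called.

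In the list of cyclins, kinases and transcription control, 6 of 38 symbols were called, 5 higher and 1 lower. Fbxo5, the inhibitor of the anaphase-promoting complex, had 18.6 FPKM in LD-high glia and 5.00 FPKM in LD-low glia (log2 change 1.90; q of 0.00187 in the authors' deposited table). Cks2, a small partner of the cyclin-dependent kinases, had 42.3 FPKM in LD-high glia and 11.7 FPKM in LD-low glia (1.86). Both changed more than any member of the process by the name patterns. Mycn, a transcription factor of neural progenitors, was lower, at 1.73 FPKM in LD-high glia and 5.88 FPKM in LD-low glia (-1.76, q = 0.0375 in the authors' deposited table). Lin54, whose product binds the CHR, was at 28.5 FPKM in LD-high glia and 13.6 FPKM in LD-low glia (1.07). It is named for that role and not for the size of its change, and Lin9, Lin37 and Lin52 of the same list were not called. Of 22 symbols for chromatin of dividing cells 5 were called, all 5 higher by 0.70 to 1.05, with Hat1, Hmgb2 and Dek changed most. Of 23 symbols listed for cell cycle inhibitors and quiescence 2 were called, both higher. They were the damage-induced Gadd45a (0.86) and Gas2l3 (1.19), whose product is a microtubule and actin linker rather than an inhibitor.

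Of 80 symbols in the list of other DNA repair and checkpoint genes 3 were called, all 3 lower, and none was called higher. Slx4, the scaffold of several repair nucleases, was at 6.08 FPKM in LD-high glia and 11.8 FPKM in LD-low glia (log2 change -0.95; q of 0.0158 in the authors' deposited table). Ercc6, of transcription-coupled repair, was at 5.34 FPKM in LD-high glia and 9.74 FPKM in LD-low glia (-0.87), and Rev3l, the catalytic subunit of a translesion polymerase, was at 11.3 FPKM in LD-high glia and 18.8 FPKM in LD-low glia (-0.74). Called lower, 3 of 80 is near the 4.22% of all tested genes and is no result about the list, and the 0 of 80 called higher stands beside 4.92% of tested genes. Among the members and this list, Rad18, Rad50 and Smc6 were thus the repair genes called higher. The 0 of 80 depends on which symbols the list holds. Genes of repair outside it were called higher too, such as Gen1, Exo5, Nabp1 and Sfr1, given under the other observations.

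The authors' own term analysis took in the called higher genes, the higher members included, and so is no separate evidence. Their deposited table of Gene Ontology terms for higher genes lists 229 terms, of which 20 name the cell cycle, mitosis, nuclear division, organelle fission or chromosomes. The lowest corrected p of these in the authors' deposited table was 5.92e-07, for cell cycle process, and chromosome segregation had 0.042. No term naming DNA, replication or repair is in the authors' deposited table of either direction. The table for lower genes lists 104 terms and none of the cell cycle kind.

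Promoter windows of 300 bases, from 250 before to 50 after the first listed start, were found by symbol for 27 of the 33 members. Ccna2, Esco2, E2f8, Atad2, Esco2-ps1 and Esco2-ps2 were not matched. The CHR was present in 12 of the 27 windows (44.4%), beside 19.5% of all 27457 genes in the table and 19.6% of the 460 called higher genes with a window. All 12 were genes of the process that were higher, and 10 of them were assigned to G2 and mitosis, where 10 of 15 windows (66.7%) held one. In S phase genes it was 2 of 7 windows, and in the 3 lower members 0 of 3. Among the higher genes of the 10 lists, 19 of 31 windows (61.3%) held a CHR. Members and lists were chosen as cell cycle and repair genes, and no share was taken over such genes that were not called. The motif shares here and below thus cannot tie a motif to the change between the groups.

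The CCAAT box was present in 15 of 27 member windows (55.6%), beside 40.9% of called higher genes and 37.7% of all genes. Both elements together were present in 10 of 27 (37.0%), beside 9.78% of called higher genes and 7.83% of all genes. The short E2F motif TTCCCGC was present in 6 of 27 (22.2%), beside 6.74% of called higher genes and 4.47% of all genes. The long form TTTCGCGC or TTTGGCGC was present in 2 of 27, Cdk1 and Smc6 (7.41%), beside 2.61% of called higher genes and 0.841% of all genes. In Cdk1 the long form lies within the stretch printed above, in small letters. The CHR of Cdk1, Ncapg and Top2a nearest to the start began 16, 24 and 22 bases before it. Bub1, Cenpu, Ncapg2 and Rad18 were higher with none of the motifs in the window. A match is a run of letters and not a measured site, and the windows hold other sequence that these members may share.

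**Figure D4:**
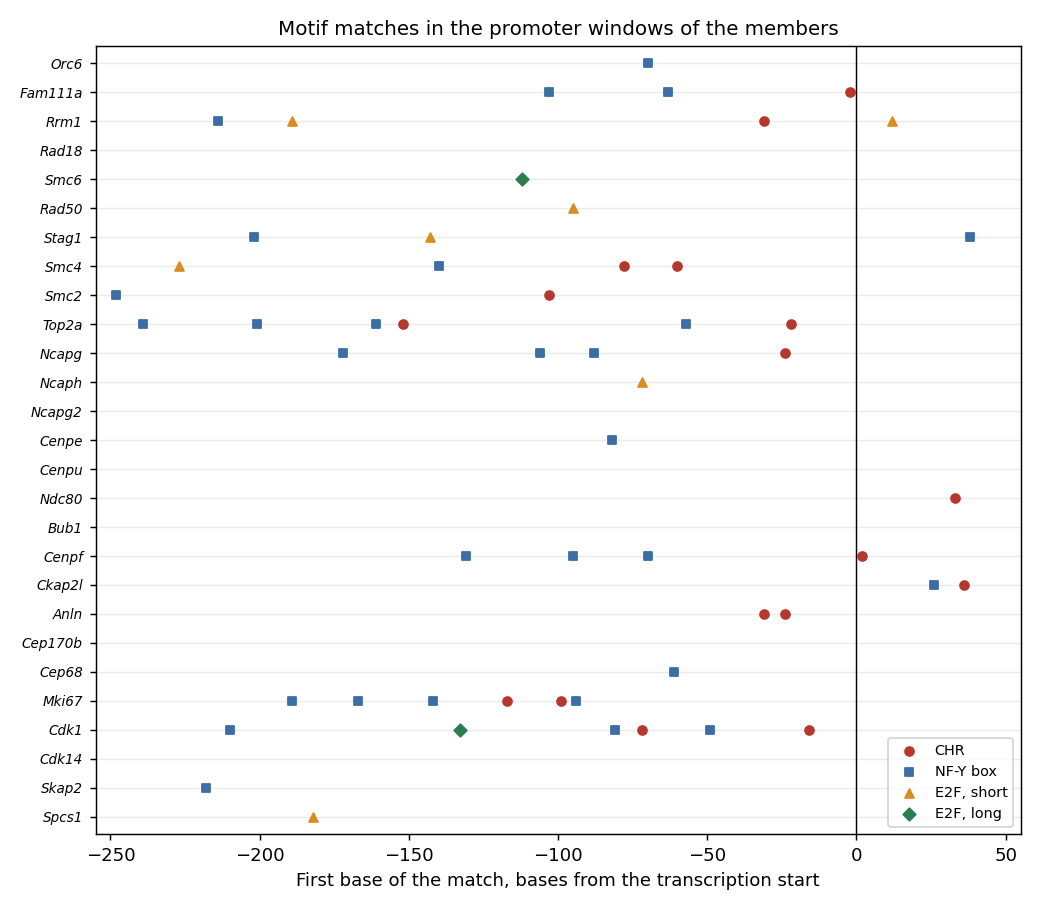
Position of each motif match in the promoter windows of the 27 members with a window, by the first base of the match relative to the transcription start (horizontal axis, in bases), with NF-Y box for the CCAAT box. Matches to the CHR lie close to the start in Cdk1, Ncapg, Top2a, Anln and Rrm1 and farther upstream in Mki67 and Smc2, and 6 members, including the lower Cdk14 and Cep170b, have no match.

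The members were spread over the genome. They lay on 16 chromosomes with at most 4 on 1 chromosome, and no member's locus overlapped another called gene. The closest pair of members was Bub1 and Ncaph on chromosome 3, with a gap of 762 kb, and Ckap2l lay 1391 kb from Bub1. Other called genes can lie much closer to a member. On chromosome 15 Pbk ends at 42500395 and Esco2 starts at 42500929. On chromosome 6 Gen1 ends at 36940868 and Smc6 starts at 36941233. All 4 were called higher. The median locus of the 30 higher members was 30.0 kb, beside 26.02 kb over all called higher genes and 40.3 kb over all called lower genes.

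Markers of several cell types moved in the same comparison. Of 18 microglia and macrophage symbols 11 were called, each of them higher (median log2 change 3.52, range 2.20 to 4.41), a range that takes in Skap2, and their summed level was 535 FPKM in LD-high glia and 46.8 FPKM in LD-low glia. Of 12 neuron symbols 11 were called, all lower (median -4.17), with a sum of 187 FPKM in LD-high glia and 702 FPKM in LD-low glia. Fibroblast, meningeal and mural markers (4 of 9, median 1.68, sums of 218 FPKM in LD-high glia and 71.2 FPKM in LD-low glia) and endothelial markers (3 of 6, median 1.66, sums of 41.0 FPKM in LD-high glia and 13.0 FPKM in LD-low glia) were higher. Oligodendrocyte precursor markers (2 of 7, median -2.48, sums of 4.39 FPKM in LD-high glia and 25.9 FPKM in LD-low glia) and the ependymal Dnah9 (1 of 4) were lower. Of 11 astrocyte symbols 1 was called, Acsbg1, higher by 0.95, and a gene outside the called ones has no level here, so the astrocyte label could not be checked further. No called marker of these lists was listed at 0. The part of these shifts in the changes of the cell cycle genes was not tested.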

How the data were processed

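The authors mapped reads with Bowtie2 to rn6 and compared groups with Cuffdiff, per the submitters' processing notes. Their versions, the annotation and the strand setting are not stated in those sources. Per the file headers, the authors deposited 1 level per gene and group (read as FPKM), together with a p-value, a q-value and a log2 fold change for called genes. The deposited tables hold 0 columns per sample, so no test between samples was run and every call is the authors'.

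Changes were recomputed on the log2 scale from both levels and differed from the deposited one by at most 9.94e-06 in the sheet of higher genes. The number of tested genes was recovered from p, q and rank (12981, checked on simulated data). Locus starts were raised by 1, since Cuffdiff counts from 0. Python 3.11.15 was used. The planned fits per sample were not possible.

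Members, lists, roles and phases were chosen with earlier results of these data known. Values are given for all members, and for the 3 genes with the largest change of each list, with others chosen after their values were seen; some genes of the lists are not reported here. Alternatives were stricter q, change and level limits, and leaving out genes at 0 and symbols outside the process.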

Additional observations from a re-analysis of the deposited data

How the results depend on the processing

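With q below 0.01 in place of 0.05, 18 members were higher and 0 lower, the median log2 change of the higher members was 1.10, and 17 genes of the lists were higher and 0 lower. That limit left 297 of 639 called higher and 257 of 548 called lower genes. With a change of at least 1 on the log2 scale, 19 members were higher and 1 lower (median 1.20 for the higher), and 24 genes of the lists were higher and 1 lower, beside 408 of 639 called higher and 427 of 548 called lower genes. Without the pseudogenes and the symbols outside the process the median was 1.02 over 26 higher genes. Level limits of 1 and 5 FPKM in the higher group, and leaving out genes at 0 in a group, removed no member and no gene of the lists. Direction is fixed by the sheet in which a gene stands and cannot change under these settings. No paired analysis was possible because the deposited columns carry no replicate numbers, and no replicate could be left out and no count test run for the same reason. The depth per sample is unknown.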

Other observations

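Further called genes of replication, repair and division stand in neither the name patterns nor the lists. The 12 named here were chosen after their values were seen, so their number and direction follow from the choice and are no result about such genes. All 12 were higher, with log2 changes from 0.85 to 1.84. Prr11, a protein of mitotic progression, had 35.4 FPKM in LD-high glia and 9.88 FPKM in LD-low glia (log2 change 1.84; q of 0.00187 in the authors' deposited table). Ddias, an anti-apoptotic protein induced by DNA damage, had 21.1 FPKM in LD-high glia and 6.45 FPKM in LD-low glia (1.71, q = 0.00187 in the authors' deposited table). Nabp1, a single-strand DNA binding protein, the nuclease Exo5, the Holliday junction resolvase Gen1 and Sfr1, a helper of recombination, changed by 1.76, 1.55, 0.99 and 0.93. The centriole and centrosome genes Cetn3, Ccdc18 and Lrrcc1 changed by 1.35, 1.15 and 1.13. Npat, which drives histone transcription in S phase, the telomere protein Terf1 and the GTPase Ran changed by 0.93, 0.85 and 0.91.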
